A study of Rattus norvegicus with 9 samples.

Results

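Genes that the deposited table types as non-coding RNA, and that drew enough reads to be measured in rat synovium, are described here. A row of the table was taken when its gene type was neither protein-coding nor a pseudogene, immunoglobulin, T cell receptor, ribosomal or mitochondrial type, and when its reads summed over the 9 libraries reached at least 500. The rule found 128 of the 32883 rows. RNA was taken from the synovium, which lines the joint, in Lewis rats, and each of the groups TZG, AIA and NC has 3 libraries. The labels do not spell these names out and give no age, dose or timing. The series title names a Tianhe Zhuifeng liquid extract and rheumatoid arthritis, so TZG was read as the extract group, AIA as the arthritis model and NC as the control. Whether TZG animals had arthritis is not stated. Whether each library is a separate animal is not stated either. The p-values therefore rest on the spread among libraries alone, and that spread may be technical. The genes were chosen by their summed reads, so their levels are given as a description, whereas differences between groups were not used by the rule.

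Long non-coding RNAs are transcripts without a translated protein, and several of them organise nuclear bodies or act on neighbouring genes. MicroRNAs are short RNAs, cut from a hairpin in a longer transcript, that pair through their seed with messenger RNAs and lower their output. In inflamed joints both classes have been studied in fibroblasts of the lining and in the myeloid cells that enter the tissue.

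The gene type in the table and the type in RefSeq often differed. The 128 genes comprised 82 of 3090 lincRNA rows (intergenic long RNAs), 36 of 81 processed_transcript rows (spliced RNAs given no coding frame), 9 of 1588 miRNA rows and 1 of 59 antisense rows. RefSeq (assembly GRCr8), read here for names, types and gene order alone, matched 34 of them and typed 28 of these as protein-coding, 3 as long non-coding RNA, 2 as microRNA and 1 as a transcribed pseudogene. Of the 28, 23 were processed_transcript rows. They held 52.6% of the reads of all 128 genes. The table's own descriptions name a protein or protein-like gene for 40 of the 128, of which 17 are lincRNA rows. Counting either source, 41 genes are so named or typed as protein-coding by RefSeq. Among the leading genes by reads were the collagen VI chain Col6a3 (row AABR07068316.1), the integrin subunit Itgb5, the surface glycoprotein Cd93 and the nesprins Syne2 (AABR07064873.1) and Syne1 (AABR07001382.1), which tie the nucleus to the cytoskeleton. The genes are therefore called here genes typed as non-coding, and 87 of them carry only a clone name. No snoRNA, snRNA, scaRNA, ribozyme or misc_RNA row reached the limit, the highest being a misc_RNA row with 229 reads. Just inside the limit stood AABR07014275.1 with 500 reads and AABR07019088.1 with 503 reads, and just outside it LOC102550455 with 496 reads and AABR07027272.1 with 481 reads.

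Of the 9 miRNA rows, Mir675 and Mir3064 have a RefSeq entry. A further gene, the lincRNA AABR07038983.1, shares 10 bases with the table's row for Mir223, which lies outside the set. That row had 3, 3 and 17 reads in TZG, 2, 3 and 12 reads in AIA and 1, 2 and 1 reads in NC, 44 in all. Mature sequences of these hairpins are shown because the miRNA rows had the highest levels per length and because AABR07038983.1 had the largest rise of the set in TZG against NC. The labels name an mRNA-Seq kit, so levels of miRNA rows need not be levels of mature microRNAs. They are from RefSeq (GRCr8), written from the first base onward, with the seed (bases 2 to 8) in capitals. Mir675 is on the minus strand at chr1:207161752-207161835, Mir3064 on the minus strand at chr10:92225518-92225584 and Mir223 on the plus strand at chrX:65151383-65151492.
rno-miR-675-5p: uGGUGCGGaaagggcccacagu
rno-miR-675-3p: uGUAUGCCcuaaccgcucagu
rno-miR-3064-3p: uUUGCCACacugcaacaccuuaca
rno-miR-223-5p: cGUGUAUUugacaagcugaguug
rno-miR-223-3p: uGUCAGUUugucaaauacccc
No seed was shared among these 5 sequences. Mouse and human miR-675 are cut from H19, an imprinted transcript of fetal tissue and regenerating muscle, and RefSeq places H19 beside Mir675 between Mrpl23 and Igf2 in the rat. The table has no row named H19, so reads of H19 and of miR-675 cannot be told apart in the row Mir675. miR-223 is a microRNA of neutrophils and other myeloid cells.

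Library totals ran from 12536231 to 16402126 reads, and a count of 0 allows up to 0.183 to 0.239 CPM in a library (3 reads, counting error only). Columns of 5 libraries carry a number that is also a sample title in the matching group, and the other 4 (G31, G48, M2, M8) were placed by their letter. Levels below are CPM, read counts scaled to a common library size with TMM factors. Some libraries stood apart in tissue makeup. Of 12 skeletal muscle markers, 9 matched and summed to 29200 CPM in NC library C61 and to 1460 in C59, against 15.1 to 96.7 in the other 7 libraries. Cartilage markers (10 of 10) reached 8430 CPM in TZG library G48 and lay between 17.4 and 784 elsewhere. Bone markers (8 of 8) summed to 255, 237 and 2730 CPM in TZG, 26.5, 46.4 and 132 CPM in AIA and 28.3, 32.9 and 17.7 CPM in NC, so every TZG library lay above all others. Osteoclast markers (8 of 8) reached 2660 CPM in G48 and 81.8 to 371 elsewhere, and erythroid markers (8 of 10 matched) reached 5040 CPM in AIA library M8 and 192 to 1050 elsewhere. Neutrophil markers (10 of 10) summed to 1030, 471 and 3500 CPM in TZG, 394, 401 and 3300 CPM in AIA and 46.1, 62.2 and 119 CPM in NC, without overlap of TZG or AIA with NC. Markers of synovial fibroblasts (9 of 9) were detected throughout, at 4750 CPM in C61 and 11200 to 45300 CPM in the other libraries. In such tissue, fewer cells of a type and less RNA per cell cannot be told apart.

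Per length, the miRNA rows stood highest. Their median was 386 CPM per kilobase, against 5.2 for lincRNA rows, 5.23 for processed_transcript rows and 11.8 for the 11980 protein-coding rows with at least 500 reads. The 8 genes with the highest level per length were AABR07067556.1 (2150 CPM per kilobase), AC135443.1 (1780), AC112062.1 (520), AABR07008505.1 (511), AC128792.1 (386), Mir675 (251), Mir3064 (101) and Snx3 (88.7). All but Snx3, a sorting nexin of endosomes, are miRNA rows of 67 to 141 bases. How reads that cross the ends of such short rows were counted is not given in the sources used here.

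**Figure D1:**
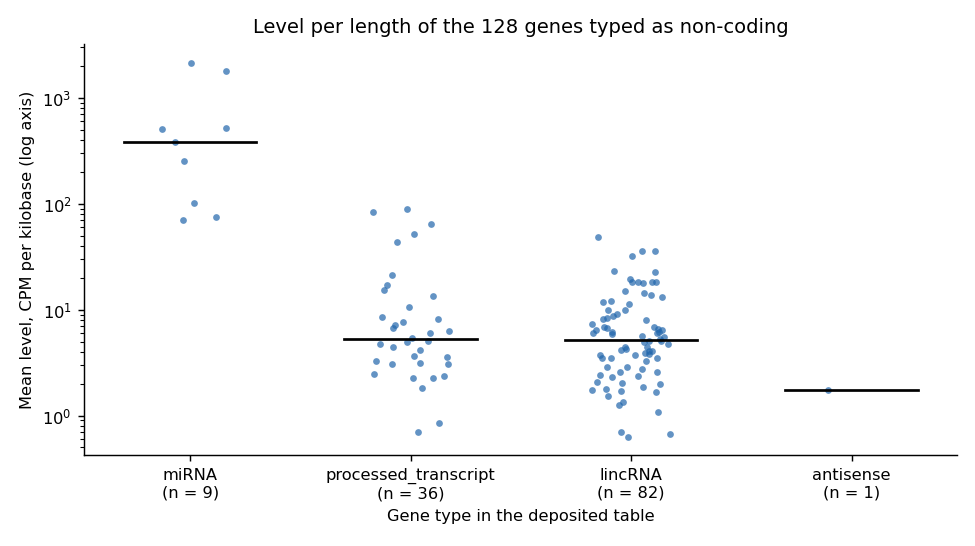
Mean level over the 9 libraries in CPM per kilobase (log axis) of each gene typed as non-coding, by its gene type in the table, with a bar at the median. The 9 miRNA rows (median 386) lie above nearly all lincRNA (median 5.2) and processed_transcript (median 5.23) rows.

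Of the 9 miRNA rows, 7 overlap the span of a protein-coding gene, and for 5 of these the reads for each read of that gene varied between libraries by 1.13-fold to 1.99-fold. AABR07067556.1 (chromosome 9, 52023324 to 52023464 in the table's coordinates) lies inside Col3a1, the collagen III gene of connective tissue. It stood at 327, 307 and 525 CPM in TZG, 197, 352 and 152 CPM in AIA and 302, 518 and 53.7 CPM in NC. It was highest in G48 and C59 and lowest in C61, and the groups overlapped. For each 100 reads of Col3a1 it held 1.62 to 2.72 reads in every library, although its own level varied 9.76-fold. AC135443.1, inside the ribosomal protein gene Rpl19, held 25.5 to 28.7 reads for each 100 of Rpl19. Gm25994 and Mir3064, both inside the RNA helicase gene Ddx5, held 0.72 to 1.43 and 0.656 to 1.19 reads for each 100 of Ddx5. AC128792.1 held 12.2 to 17.3 reads for each 100 of LOC100360087, which covers 85.8% of its span. The table gives no strand, so reads of a row and of the gene it overlaps cannot be told apart.

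**Figure D2:**
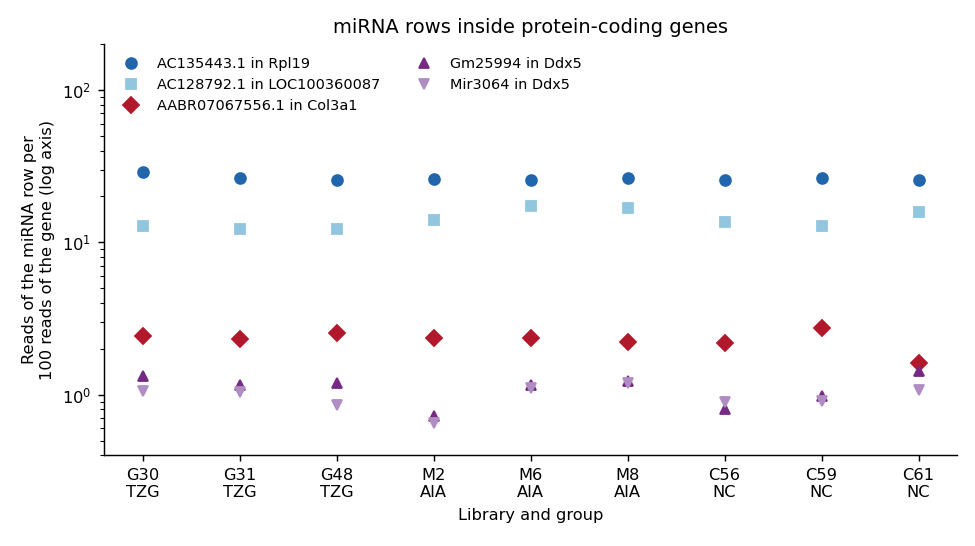
Reads of 5 miRNA rows per 100 reads of the protein-coding gene that each overlaps (log axis), by library, with TZG at the left, then AIA and NC. AC135443.1 stays between 25.5 and 28.7, whereas AABR07067556.1 stands at 1.62 in C61 and at 2.18 or more in the other libraries.

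The remaining pair of miRNA rows did not keep such a ratio. AABR07008505.1 held 135, 171 and 225 reads for each 100 of Pdzd2, a PDZ-domain gene, in TZG, 86.4, 92.7 and 74.6 in AIA and 78.5, 72.9 and 86.8 in NC. TZG libraries lay above all others. Pdzd2 itself was lower in TZG than in NC (log2 fold change -0.94, edgeR adjusted p = 0.0133), while the miRNA row had a log2 fold change of 0.2 (adjusted p = 0.344). AC112062.1, with 5709 reads inside Myo7b with 219 reads, held more reads than the gene around it in every library.

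Mir675 was led by a single library. It stood at 3.33, 3.53 and 14.6 CPM in TZG, 1.91, 6.79 and 2.41 CPM in AIA and 5.45, 6.32 and 145 CPM in NC. C61, the NC library with the most muscle transcripts, was 9.92 times the next library, and the other 8 libraries overlapped between groups. The log2 fold change was -3.81 ± 1.36 (SE) in AIA against NC (edgeR adjusted p = 0.233) and -2.86 ± 1.29 in TZG against NC (adjusted p = 0.182). Without C61 these were -0.66 (adjusted p = 0.714) and 0.28 (adjusted p = 0.845), so the sign turned in TZG against NC. In the authors' deposited table Mir675 has log2 fold changes of -3.8 (q = 0.00503) and -2.85 (q = 0.0421) for the same comparisons. Mir3064 stood between 5.28 and 7.86 CPM in all 9 libraries, with log2 fold changes of -0.04, -0.03 and -0.07 in AIA against NC, TZG against AIA and TZG against NC.

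Among named long non-coding RNAs, Tug1, a broadly expressed nuclear and cytoplasmic transcript, stood at 45.5, 40.1 and 48 CPM in TZG, 42.1, 39.6 and 47 CPM in AIA and 43.4, 48.6 and 34.5 CPM in NC. The groups overlapped, and its log2 fold change was 0.02 ± 0.15 in AIA against NC, 0.05 ± 0.15 in TZG against AIA and 0.08 ± 0.15 in TZG against NC (edgeR adjusted p of 0.955, 0.907 and 0.764). Tug1, Mir675 and Mir3064 were the 3 genes of the set among 151 non-coding RNAs in 7 lists of snoRNA hosts, imprinted, nuclear, structural and microRNA genes, of which 35 have a row in the table. Rows of 22 microRNAs of immune cells and fibroblasts summed to 214 reads, and 4 rows of muscle microRNAs had 0 reads. The labels name an mRNA-Seq kit, so low counts in rows of small RNAs do not show that mature microRNAs were absent. Nor do reads in the rows Mir675 and Mir3064 show that mature microRNAs were present.

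The 128 genes took a similar share of reads in all groups. The share was 0.588% ± 0.0228 in TZG, 0.583% ± 0.0253 in AIA and 0.612% ± 0.141 in NC (SD, n = 3 each). The lowest library was C61 with 0.45% and the highest C59 with 0.707%, both NC, so NC spanned the other groups. The difference was -0.0291 percentage points in AIA against NC (exact two-sided permutation p = 0.8), 0.00476 in TZG against AIA (exact permutation p = 0.8) and -0.0243 in TZG against NC (exact permutation p = 0.9), where 3 libraries against 3 cannot give less than 0.1. Processed transcripts held 67.9% of these reads, lincRNAs 21.4% and miRNA rows 10.6%, and the 10 genes with most reads held 61.4%. The highest library was 1.97 times the lowest for the median gene of the set, against 1.94 for the median of all genes tested.

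**Figure D3:**
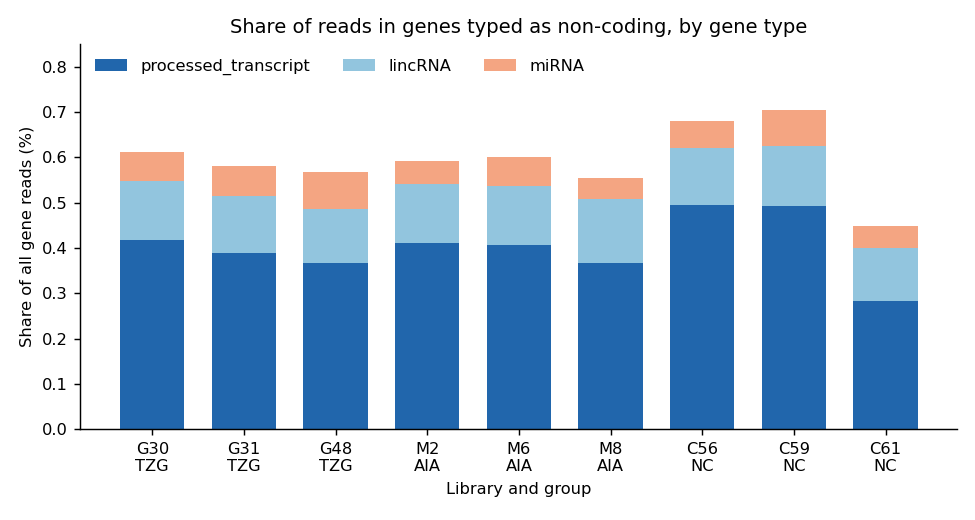
Share of all gene reads (%) that fell in genes typed as non-coding, stacked by gene type (the antisense gene is not drawn), for the TZG, AIA and NC libraries. Shares run from 0.45% in C61 to 0.707% in C59, and the TZG and AIA libraries lie between 0.554% and 0.613%.

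The gene with most reads, AABR07068316.1 (Col6a3), a chain of the collagen VI microfibrils around cells, stood at 1330, 1290 and 1540 CPM in TZG, 818, 1150 and 701 CPM in AIA and 1040, 993 and 435 CPM in NC. TZG libraries were above all AIA and NC libraries, as they were for bone markers, whose part in the result was not tested. The log2 fold change did not pass in TZG against AIA (0.64 ± 0.33, edgeR adjusted p = 0.447) or in TZG against NC (0.75 ± 0.33, adjusted p = 0.17). Next by reads, AABR07044388.2 lies on chromosome 20 between Atf6b and Dxo, over the rows LOC103689965 and Cyp21a1, a steroid hydroxylase gene. It stood at 604, 520 and 183 CPM in TZG, 919, 561 and 614 CPM in AIA and 1290, 1570 and 447 CPM in NC, with G48 and C61 lowest in their groups. Its log2 fold change in TZG against NC was -1.34 ± 0.54 (edgeR adjusted p = 0.14), and the libraries overlapped. DESeq2 called it lower there (adjusted p = 0.0485), and in edgeR it passed without C61, M8 and G48 (-1.34, adjusted p = 0.0204). LOC103689965 covers its whole span, so reads of both rows cannot be told apart. For each 100 reads of LOC103689965, AABR07044388.2 held 9.89 reads in G48 and 175 in C56. LOC103689965 itself had a log2 fold change of 0.72 in TZG against NC (edgeR adjusted p = 0.155). Between Atf6b and Dxo RefSeq places Stk19, a transcribed pseudogene and a long non-coding RNA. AABR07068316.1 and AABR07044388.2 were described for their read totals, chosen after their values were seen.

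AIA was set against NC to show the effect of the arthritis model. No gene of the set passed (an edgeR quasi-likelihood adjusted p under 0.05 over all 15068 genes tested), where 0.0133% of all genes did (0.00664% higher and 0.00664% lower). At an unadjusted p under 0.05 there were 19 of 128 (14.8%), against 15.0% of all genes. The median log2 fold change was 0.02 for the set and -0.01 for all genes tested. DESeq2 called 3 higher and 5 lower, where it called 3.89% of all genes higher and 2.37% lower. limma-voom called none of the set (0.0% of all genes higher and 0.00664% lower), nor did a fit of these 2 groups alone (0.00683% higher and 0.0% lower). At q under 0.05 the authors' deposited table has 4 genes of the set higher (2.82% of its tested genes) and 2 lower (1.5%).

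The genes named next had the smallest p in AIA against NC, and none passed. AABR07072853.4 stood at 16.3, 10.6 and 16.8 CPM in AIA and 46.4, 37.7 and 36.6 CPM in NC (log2 fold change -1.46 ± 0.29, edgeR adjusted p = 0.099). AABR07035470.1 stood at 9.38, 23.4 and 15.8 CPM in AIA and 7.1, 5.92 and 3.97 CPM in NC (1.51 ± 0.34, adjusted p = 0.111). Libraries of AIA and NC did not overlap for either gene, as for 25 genes of the set (19.5%), against 20.5% of all genes (11.2% higher and 9.22% lower). Also lower in every AIA library than in any NC library were AC108574.1 (log2 fold change -0.75), AABR07072236.1 (-0.55), Astn1, a neuronal migration gene (-1.24), and AABR07070307.1 (-0.7), with adjusted p from 0.13 to 0.185. Higher in every AIA library were LOC102549714 (2.4), AABR07021465.2 (0.4) and AABR07038983.1 (2.46), with adjusted p from 0.133 to 0.269. Single libraries moved some of these values: AABR07038983.1 had 1.51 without M8 and 1.0 without C61, M8 and G48, and Astn1 had -0.77 without C56. Without C61, M8 and G48, AABR07072853.4 passed (log2 fold change -1.65, adjusted p = 0.0344), where 0.627% of all genes were called higher and 0.573% lower. In every AIA library neutrophil markers were higher, and skeletal muscle markers lower, than in any NC library. Their part in these differences was not tested.

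TZG was set against AIA to show what differed between the extract group and the model. No gene of the set passed, nor did any gene of the table (0.0% of 15068 tested). At an unadjusted p under 0.05 there were 14 of 128 (10.9%), against 12.6% of all genes, and the medians of the log2 fold change were -0.04 and 0.0. DESeq2 called 4 lower and 0 higher, where it called 1.07% of all genes lower and 1.05% higher. No gene of the set passed without C61, M8 and G48 (0.0% of all genes higher and 0.00667% lower) or stood at q under 0.05 in the authors' deposited table (0.407% higher and 0.171% lower).

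All 4 genes that DESeq2 called lower in TZG than in AIA come from a pair of loci. On chromosome 1, AC134224.1, AC134224.2 and AC134224.3 lie within 6966 bases of each other. AC134224.2 (221151827 to 221153278) stood at 7.86, 8.03 and 8.11 CPM in TZG, 18.3, 14.3 and 17.9 CPM in AIA and 12.1, 16.3 and 14.7 CPM in NC. AC134224.1 stood at 57, 58.2 and 50 CPM in TZG, 88, 79.7 and 109 CPM in AIA and 69.1, 84.7 and 87.8 CPM in NC. For both rows all TZG libraries lay below all AIA and all NC libraries. Bone markers set TZG apart from both groups in the opposite direction, and their part here and at the next locus was not tested. In TZG against AIA the log2 fold changes were -1.07 ± 0.17 and -0.74 ± 0.15, each with an edgeR adjusted p of 0.261 (DESeq2 adjusted p of 6.63e-05 and 0.004). AC134224.3, highest in NC library C59 at 90.3 CPM, had -0.83 ± 0.43 (edgeR adjusted p = 0.448) and was not called by DESeq2. In TZG against NC, AC134224.3 had -1.34 ± 0.44 (edgeR adjusted p = 0.0848, DESeq2 adjusted p = 0.018), and -0.53 without C59.

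The other locus is on chromosome 6, where the lincRNA AABR07064878.1 lies inside the span of AABR07064873.1 (RefSeq Syne2). AABR07064873.1 stood at 235, 189 and 145 CPM in TZG, 344, 342 and 386 CPM in AIA and 317, 281 and 344 CPM in NC, and AABR07064878.1 at 10.7, 9.62 and 5.17 CPM in TZG, 15.5, 20.2 and 19 CPM in AIA and 18.9, 16.9 and 13.3 CPM in NC. TZG was below both other groups without overlap. The log2 fold changes in TZG against AIA were -0.91 ± 0.18 and -1.11 ± 0.27 (edgeR adjusted p of 0.261 and 0.264). As 1 row lies inside the other, their reads cannot be told apart. AABR07011996.1, near Tdo2, had a log2 fold change of -0.45 (adjusted p = 0.273). On the higher side LOC100910854 (0.85), LOC100911851 (0.36), AABR07068341.1 (0.62) and AC127076.2 (0.82) lay above AIA in every TZG library, with adjusted p from 0.322 to 0.344, and AABR07068341.1 had 0.41 without M8. AABR07035470.1 (0.72, adjusted p = 0.405) overlapped, and had 0.45 without M2 and 1.09 without M6. In all, 27 genes of the set (21.1%) did not overlap between TZG and AIA, against 23.4% of all genes (10.7% higher and 12.7% lower).

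The comparison of TZG with NC sets the extract group beside the control. Here 9 genes of the set passed, 2 higher and 7 lower in TZG, which is 1.56% and 5.47% of the set, against 5.79% and 4.53% of all 15068 genes tested. In either direction that is 7.03% of the set, against 10.3% of all genes. Among them AABR07035470.1 rose, and AABR07072853.4, AABR07072236.1, AC134224.2, AC108574.1, AABR07064873.1 (Syne2), Bves and AC134224.1 fell. Of these 9, 5 are processed transcripts and 4 lincRNAs. Both comparisons with NC share the NC libraries, and those with TZG share the TZG libraries.

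AABR07035470.1 (chromosome 12, 15700825 to 15844512, between Foxk1 and Iqce, nearest to Iqce) stood at 30.4, 21.9 and 28 CPM in TZG, 9.38, 23.4 and 15.8 CPM in AIA and 7.1, 5.92 and 3.97 CPM in NC. Every TZG and AIA library was above every NC library. Its log2 fold change in TZG against NC was 2.23 ± 0.35 (edgeR adjusted p = 0.0143), and it was the 1 gene of the 9 that passed without each library in turn (largest adjusted p = 0.0428). Neutrophil markers were also higher in every TZG and AIA library than in any NC library. Their part in the result was not tested.

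AABR07072853.4 (chromosome 3, 10384888 to 10432854) lies between Ass1 and Ncs1, an interval in which RefSeq places the gene Hmcn2 and a long non-coding RNA. It stood at 15.9, 12.1 and 7.15 CPM in TZG, 16.3, 10.6 and 16.8 CPM in AIA and 46.4, 37.7 and 36.6 CPM in NC. TZG and AIA overlapped, and both lay below NC. Its log2 fold change in TZG against NC was -1.78 ± 0.29 (edgeR adjusted p = 0.015), and its adjusted p was 0.0505 without C56. AABR07072236.1 (chromosome 11, 61994181 to 61995549) lies inside Gramd1c, a sterol transport gene, and 478 bases from the row of Mir568. It stood at 18.8, 20.8 and 15.5 CPM in TZG, 24.4, 18.8 and 24 CPM in AIA and 34.1, 34 and 30 CPM in NC, all NC libraries being highest. Its log2 fold change was -0.83 ± 0.16 (adjusted p = 0.0193). The call was lost without G30 and without C56 (adjusted p up to 0.0641). The row drew 3179 reads where Gramd1c drew 306.

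AC108574.1, a lincRNA on chromosome 11 nearest to LOC103693563, stood at 18.6, 19.8 and 26.6 CPM in TZG, 21.9, 18.5 and 26 CPM in AIA and 38.4, 30.9 and 42.9 CPM in NC. NC lay above the other groups, and the log2 fold change in TZG against NC was -0.78 ± 0.2 (edgeR adjusted p = 0.0395). Of the 9 fits that left out 1 library, it passed in 3, those without G48, M8 or C59 (adjusted p up to 0.113). Bves, a cyclic AMP-binding membrane protein best known in heart and skeletal muscle, stood at 1.47, 2.98 and 1.66 CPM in TZG, 4.62, 1.63 and 2.34 CPM in AIA and 6.72, 5.07 and 14.4 CPM in NC. It was highest in C61, the muscle-rich library. The log2 fold change was -2.09 ± 0.53 (adjusted p = 0.0422) with all libraries and -1.51 (adjusted p = 0.0931) without C61, and it passed in 2 of the 9 such fits, those without M2 or C59. Skeletal muscle markers summed to 16.3 to 56.2 CPM in TZG, 15.1 to 43.1 CPM in AIA and 96.7 to 29200 CPM in NC. Every NC library thus lay above all others, as for AABR07072853.4, AABR07072236.1, AC108574.1 and Bves. The part of muscle in these results was not tested. The lower levels of AC134224.2 (-0.84 ± 0.17, adjusted p = 0.0215), AABR07064873.1 (-0.73 ± 0.18, adjusted p = 0.0397) and AC134224.1 (-0.55 ± 0.15, adjusted p = 0.0498) in TZG are those given above beside AIA. With 1 library left out, AC134224.2 lost its call without G30, G31 or C59 (adjusted p up to 0.0632), AABR07064873.1 passed without G30 alone (up to 0.107), and AC134224.1 passed without M8 alone (up to 0.121). In the fit of TZG and NC alone, the adjusted p was 0.0504, 0.0964 and 0.076 for these genes in that order, 0.0701 for AC108574.1 and 0.0625 for Bves.

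**Figure D4:**
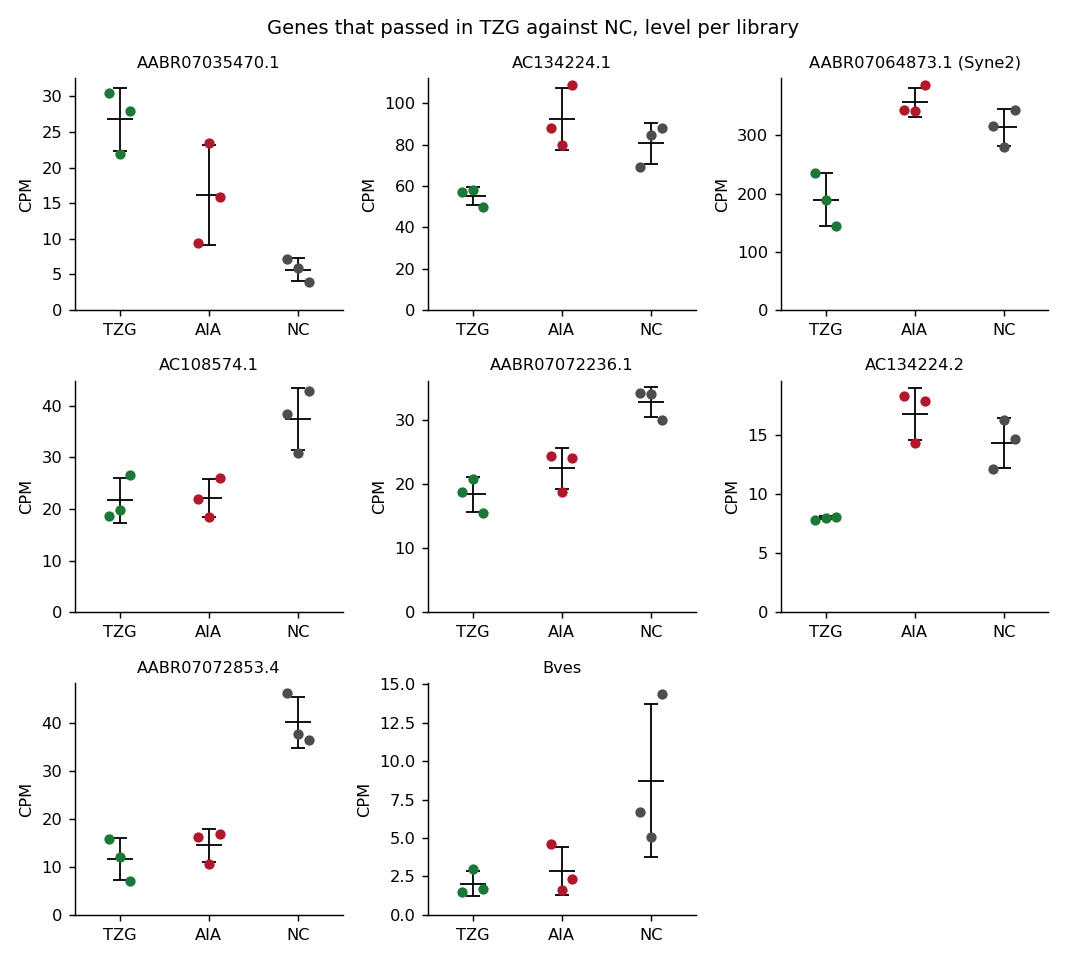
Level (CPM) in each library of 8 of the 9 genes typed as non-coding that passed in TZG against NC, with TZG, AIA and NC from left to right, points for libraries and bars for the mean and SD of 3. AABR07072853.4 averages 11.7 in TZG, 14.6 in AIA and 40.2 in NC, whereas AC134224.2 averages 8 in TZG, 16.8 in AIA and 14.3 in NC.

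Next in rank on the higher side, and short of the threshold, were LOC102549714, AABR07038983.1 and LOC102549726. AABR07038983.1 (X, 65367912 to 65368639), which touches the Mir223 row, stood at 19.8, 8.79 and 42.2 CPM in TZG, 5.79, 10.7 and 31.6 CPM in AIA and 2.66, 5.6 and 0.265 CPM in NC. Levels differed 159-fold between G48 and C61, and every TZG and AIA library was above every NC library. Its log2 fold change was 3.02 ± 0.97 in TZG against NC (edgeR adjusted p = 0.0804) and 0.56 ± 0.87 in TZG against AIA (adjusted p = 0.811), and without C61, M8 and G48 the value against NC was 1.8 (adjusted p = 0.077). DESeq2 called it higher in TZG against NC (adjusted p = 0.0053). Neutrophil markers, which summed to 471 to 3500 CPM in TZG and 46.1 to 119 CPM in NC, were highest in the same libraries, G48 and M8, and their part in the result was not tested. LOC102549714, near Yeats4, stood at 4.53, 4.57 and 5.81 CPM in TZG, 2.57, 7.6 and 9.24 CPM in AIA and 1.4, 1.91 and 0.265 CPM in NC (2.02 ± 0.63 in TZG against NC, adjusted p = 0.0742). LOC102549726 lies, in the table's coordinates, inside the span of class I histocompatibility genes RT1-CE. RefSeq places the long non-coding RNA of that name elsewhere, between Lst1 and RT1-DMb. The row LOC102549726 had a log2 fold change of 0.56 ± 0.2 (adjusted p = 0.102), and of 0.31 without C61, M8 and G48.

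**Figure D5:**
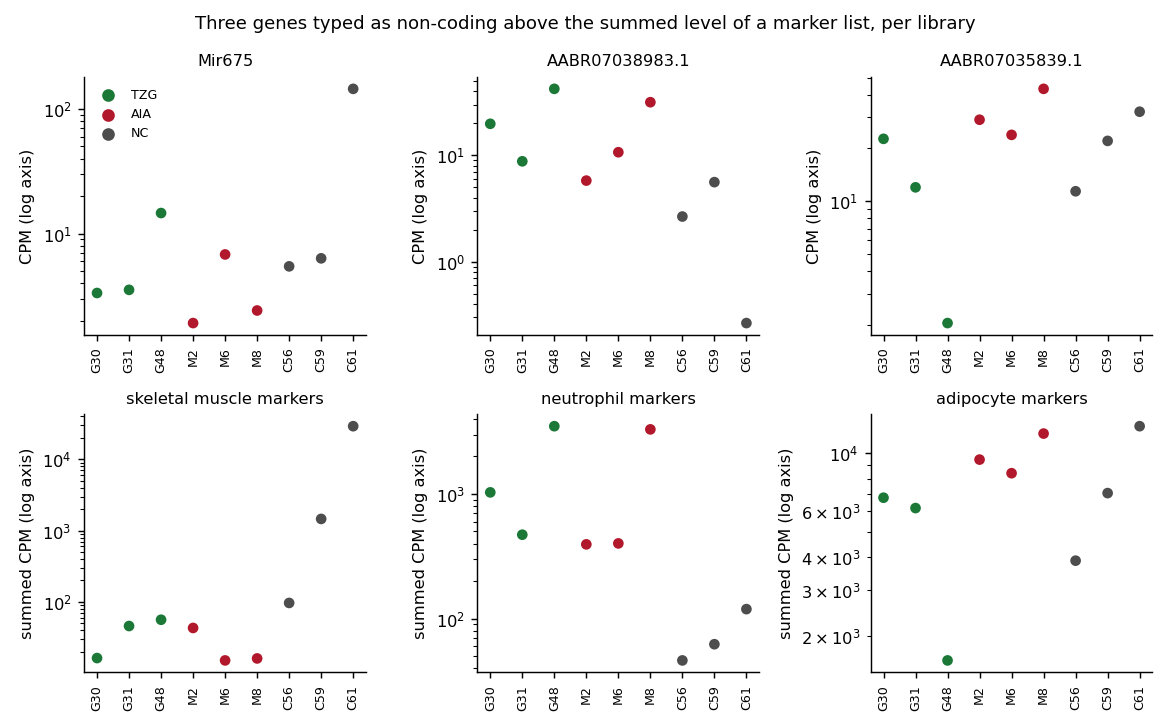
Levels of Mir675, AABR07038983.1 and AABR07035839.1 (top, CPM, log axis) above the summed levels of skeletal muscle, neutrophil and adipocyte markers (bottom, summed CPM, log axis), per library, with TZG, AIA and NC from left to right. The gene and list in each column were paired after their values were seen; Mir675 and the muscle markers are both highest in C61 (145 and 29200 CPM), and AABR07038983.1 and the neutrophil markers both highest in G48 (42.2 and 3500 CPM).

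Some genes that did not pass in TZG against NC, of which 4 are described here, passed there without C61, M8 and G48, and of these 4 all but Itgb5 were also called by DESeq2. They were chosen after their values were seen. Plekha6, a gene with a pleckstrin homology domain, stood at 22.1, 18.1 and 15.3 CPM in TZG, 26.6, 23.1 and 20.1 CPM in AIA and 34.9, 29.2 and 25.1 CPM in NC (log2 fold change -0.68 ± 0.19 in TZG against NC, edgeR adjusted p = 0.0513). TZG lay below NC, and AIA overlapped both, and without the 3 libraries the adjusted p was 0.0383. Astn1 stood at 3.33, 3.39 and 5.88 CPM in TZG, 5.2, 4.62 and 3.79 CPM in AIA and 16.7, 7.77 and 7.67 CPM in NC (-1.35 ± 0.37, adjusted p = 0.0521). Both TZG and AIA lay below NC, where C56 stood far above the others, and without the 3 libraries the log2 fold change was -1.86 (adjusted p = 0.0235). AABR07041096.1 stood at 5, 5.26 and 11.5 CPM in TZG, 3.52, 3.46 and 12.7 CPM in AIA and 2.09, 2.3 and 2.91 CPM in NC (1.58 ± 0.57, adjusted p = 0.112). G48 and M8 were highest, as they were for neutrophil markers, and without C61, M8 and G48 the log2 fold change was 1.23 (adjusted p = 0.0308). Itgb5, the integrin subunit that pairs with alpha V, stood at 219, 190 and 253 CPM in TZG, 324, 251 and 233 CPM in AIA and 462, 453 and 202 CPM in NC (-0.76 ± 0.3, adjusted p = 0.137). C61 stood below the other NC libraries, and without C61, M8 and G48 the log2 fold change was -1.16 (adjusted p = 0.0117).

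Over the whole set, 50 genes (39.1%) did not overlap between TZG and NC, against 32.6% of all genes (17.4% higher and 15.2% lower), and 36 (28.1%) had an unadjusted p under 0.05, against 29.1%. The medians of the log2 fold change were -0.04 and -0.02. DESeq2 called 6 higher and 17 lower, where it called 10.9% and 8.8% of all genes, and limma-voom 2 higher and 5 lower, where it called 4.19% and 3.64%. At q under 0.05 the authors' deposited table has 5 of the set higher and 4 lower (5.56% and 2.97% of its tested genes), among them AABR07035470.1, AABR07072853.4 and Bves. The count of lower genes was 1 without C56 (where 1.2% of all genes were lower), 2 without G30 (1.37%), 2 without G31 (0.931%), 3 without M6 (2.65%) and 4 without M2 (2.9%). The count of higher genes was 1 without C56 (0.976% of all genes), G30 (2.45%), G31 (2.06%) or G48 (3.84%). With all libraries, 4.53% of all genes were lower and 5.79% higher. A fit of these 2 groups alone gave 2 higher and 2 lower (3.58% and 1.61% of all genes), and without C61, M8 and G48 there were 6 higher and 10 lower (7.7% and 6.67%). With the 5 columns matched by number, where TZG has G30 only and AIA has M6 only, no gene of the set passed in either direction, nor did any gene of the table (0.0%). The lone libraries are assumed to vary like the others.

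Proteins that work with non-coding RNA were read from 5 lists. In TZG against NC, 5.79% of all genes tested were higher. Of 11 paraspeckle proteins, 3 were higher, the smallest p being that of Tardbp, which encodes the RNA-binding protein TDP-43 (84.6 ± 7.6 CPM in TZG and 55.5 ± 1.81 CPM in NC, log2 fold change 0.61, edgeR adjusted p = 0.015). Of 9 small nucleolar particle proteins, 1 was higher, the core protein Nop58 (64.3 ± 12.6 CPM in TZG and 35.9 ± 1.46 CPM in NC, log2 fold change 0.84, adjusted p = 0.02). None of 13 microRNA processing and effector proteins, 10 RNase P and MRP proteins or 7 proteins of the 7SK particle passed in TZG against NC, where Tnrc6c had -0.31 (adjusted p = 0.094), Pop1 0.48 (0.33) and Hexim1 -0.44 (0.068). No gene of the 5 lists passed in AIA against NC or in TZG against AIA. Medians of the log2 fold change in TZG against NC were 0.12, 0.58, 0.01, 0.01 and -0.12 in the order in which the lists are named here, against -0.02 over all genes tested.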

How the data were processed

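Each deposited table holds raw counts of reads for the 9 libraries, FPKM values, and the authors' log2 fold changes and q-values, per the file headers. The tools named are StringTie 1.3.3b, edgeR 3.30.3, HISAT2 and fastp, per the submitters' processing notes. RNeasy columns and a SMARTER mRNA-Seq kit were used, per the labels' protocols. The sources used here give neither build nor annotation nor strand setting. The 2 deposited tables are identical. Gene lengths were recovered from the FPKM of the 5 number-matched columns. Counts differed beyond sampling noise between any 2 libraries (lowest chi-square per gene 20.2), so each counted as 1 replicate.

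The counts of the whole table were fitted with edgeR 4.0.16 (R 4.3.3; robust quasi-likelihood, TMM, filterByExpr), with all 9 libraries in 1 fit. All 128 genes passed the filter. P-values were adjusted by Benjamini-Hochberg over all genes, with a threshold of 0.05. A standard error is the size of the log2 fold change over the root of its F statistic. Scripts were tested on simulated data. Alternatives included DESeq2 1.42.0, limma-voom (limma 3.58.1), other scalings, filters and read limits, and leaving out libraries.

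The genes and lists were chosen with earlier results of these data known. Named were the 8 highest per length, the genes passing in each comparison (or the 5 of smallest p per direction with at least 2 CPM), list members of the set, and the gene of smallest p in each protein list. Others were chosen after their values were seen. The values of 1 passing gene are not reported here.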

Additional observations from a re-analysis of the deposited data

How the results depend on the processing

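Of 576 recomputed log2 fold changes of genes named for a comparison, 499 kept direction and side of the threshold, and none reversed. Another 62 kept direction but no longer passed, and 15 kept direction and newly passed. Most of the named genes had not passed in the edgeR fit of all 9 libraries, so keeping the side meant still not passing. All 62 lost calls came from the 9 genes that passed in TZG against NC, the only ones that could lose a call. Mir675, outside this count, turned to 0.28 in TZG against NC without C61. With DESeq2 the counts of passing genes were 3 higher and 5 lower in AIA against NC, 4 lower in TZG against AIA, and 6 higher and 17 lower in TZG against NC. In TZG against NC, a fit of 2 groups at a time gave 2 lower, the columns matched by number 0 higher and 0 lower, and the set without genes RefSeq types as protein-coding 1 higher. With C61, M8 and G48 left out, a setting added after seeing the data, 1 was lower in AIA against NC and 6 were higher in TZG against NC, and the medians were -0.01, -0.01 and -0.07 in AIA against NC, TZG against AIA and TZG against NC. The median was 0.05 with upper-quartile factors and 0.0 without RefSeq's protein-coding genes in AIA against NC, 0.0 with the matched columns in TZG against AIA, and 0.05 and -0.06 in these comparisons at a limit of 200 reads. Leaving out each library in turn gave 0 to 1 higher in AIA against NC (1 without M2, where 0.585% of all genes were higher) and 1 to 3 higher and 1 to 6 lower in TZG against NC, with medians of 0.01 to 0.05, -0.05 to 0.0 and -0.07 to -0.01. The difference in read share then ran from -0.11 to 0.0183 in AIA against NC, -0.00962 to 0.0146 in TZG against AIA and -0.105 to 0.023 in TZG against NC. In TZG against AIA it turned to -0.0455 without the gene with most reads, -0.00179 without mitochondrial reads in the total and -0.0167 without RefSeq's protein-coding genes. The cause of these changes was not tested. No paired analysis was possible because the groups share no replicate numbers in the labels. Genes near 500 reads rest on few reads per library, and differences among them may not be detectable at this depth.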

Other observations

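Several genes typed as non-coding hold rows of small RNAs. In 7 of them the span includes or touches at least 1 such row, 9 rows in all, of which 4 are snoRNA rows and 3 miRNA rows. LOC102549726 holds a pair of snoRNA rows with 9 and 5 reads, against 1642 reads of its own. Astn1 holds the row of Mir488, with 0 reads.

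A few genes were led by 1 library, by the ratio of the highest to the next. After Mir675 (9.92) came AC134224.3 (2.45, highest in NC library C59 at 90.3 CPM), Astn1 (2.16, highest in C56 at 16.7 CPM) and Bves (2.14, highest in C61 at 14.4 CPM), and in 7 genes the ratio was at least 1.5. AABR07035839.1, between Tbl2 and Vps37d, where RefSeq places the lipogenic regulator Mlxipl, was lowest in G48, at 2.04 CPM, and highest in M8, at 43.4 CPM. Adipocyte markers were lowest in G48 as well, at 1610 CPM, but highest in C61, at 12700 CPM, with 11900 CPM in M8. Their part in the levels of AABR07035839.1 was not tested. AC241873.1, matched to the Y-linked gene Uty, was read in all 9 libraries, at 13.1 to 19.4 CPM.

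By chromosome, 16 of the 128 genes lie on chromosome 1 and 12 each on chromosomes 13, 20 and X.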
